A study of Drosophila melanogaster with 3 samples.

Results

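The 10 genes described here encode the *Drosophila melanogaster* proteins that copy, package and transcribe the mitochondrial genome. They are *PolG1*, *PolG2*, *mtSSB*, *mtDNA-helicase*, *TFAM*, *mtTFB2*, *PolrMT*, *mTTF*, *mTerf3* and *mTerf5*, 10 of the 13968 protein-coding genes of the annotation. They were named by function, and for each one the regions bound by Ets97D were collected whose summit, the point of highest signal, lay within 500 bp of a transcription start site. All 10 have a single annotated start site.

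The assay was chromatin immunoprecipitation with sequencing (ChIP-seq) with an antibody against GFP, on flies of a transgenic line that stably expresses Ets97D carrying GFP at its C terminus. Whole embryos of both sexes were pooled over the first 0 to 24 h of development. There was 1 group of 3 biological replicates and no second genotype, treatment or time, so no contrast between groups was tested and replicate values are given with their standard deviation (SD). The fusion is 1 line labelled as an insertion, and embryos without the fusion were not analysed here. A whole embryo mixes all its cell types, so a promoter bound weakly in many cells and one bound strongly in few cannot be told apart.

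Mitochondrial DNA is small and circular, and the proteins that maintain it are encoded in the nucleus. DNA polymerase gamma, with its catalytic subunit PolG1 and its accessory subunit PolG2, copies the DNA behind the helicase that unwinds it, while mtSSB coats the exposed single strand. TFAM wraps the DNA and bends it at promoters, mtTFB2 opens the promoter for the RNA polymerase PolrMT, and proteins of the MTERF family bind DNA or RNA to end transcription or to tune it. Ets97D, also called Delg, is an ETS-domain protein. Its mammalian counterpart, GABP alpha (NRF-2 alpha), is known for binding promoters of nuclear genes for mitochondrial proteins.

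The sequences just upstream of 6 of the genes are shown because they hold, or are next to, the summits described below. Each runs 5′ to 3′ in the direction of its gene and ends on the base before its start site, from the NCBI sequence of the dm6 build (Release 6). It starts at the next annotated transcript. Capitals mark any of 8 short words, on either strand, that were searched for. CCGGAA and CCGGAAG are a shorter and a longer form of the ETS site, whose other forms were not searched for. TATCGATA is the target of the factor DREF, called the DRE. CGATA is the core within the DRE that the insulator protein BEAF-32 also binds. GGTCACAC is the core promoter element Motif 1, TATAAA is the TATA word, and CAGCTG and CACGTG are E-box words. On the opposite strand CGATA reads TATCG and TATAAA reads TTTATA.
PolrMT, chr2L:1108374-1108539, minus strand: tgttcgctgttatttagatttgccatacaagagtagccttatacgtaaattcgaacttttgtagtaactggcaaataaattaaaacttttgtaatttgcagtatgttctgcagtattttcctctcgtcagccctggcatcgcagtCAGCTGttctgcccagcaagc
PolG2, chr2L:13833106-13833336, minus strand: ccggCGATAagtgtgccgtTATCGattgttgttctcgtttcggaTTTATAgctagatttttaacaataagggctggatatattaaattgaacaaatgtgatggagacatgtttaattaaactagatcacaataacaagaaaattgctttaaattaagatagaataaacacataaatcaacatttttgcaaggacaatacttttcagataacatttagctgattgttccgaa
mTTF, chr2L:14348791-14349019, minus strand: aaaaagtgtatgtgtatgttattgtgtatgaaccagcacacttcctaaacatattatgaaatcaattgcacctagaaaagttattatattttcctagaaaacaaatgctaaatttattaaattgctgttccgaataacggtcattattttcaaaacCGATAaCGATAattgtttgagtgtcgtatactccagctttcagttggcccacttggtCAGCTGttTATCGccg
mTerf3, chr3L:20520773-20521008, minus strand: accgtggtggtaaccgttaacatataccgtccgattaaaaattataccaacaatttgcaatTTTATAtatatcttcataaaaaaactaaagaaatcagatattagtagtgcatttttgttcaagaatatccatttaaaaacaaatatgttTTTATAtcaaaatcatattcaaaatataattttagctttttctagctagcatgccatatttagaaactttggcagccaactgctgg
mTerf5, chr3R:18223683-18223721, minus strand: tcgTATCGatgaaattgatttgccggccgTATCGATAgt
TFAM, chr3R:20577011-20577052, minus strand: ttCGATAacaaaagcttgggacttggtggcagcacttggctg

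Peaks of the optimal set, the thresholded list that the authors derived from all replicates by their irreproducible discovery rate (IDR) procedure, were at the promoters of 6 of the 10 genes. These were *PolrMT*, *mtSSB*, *mTTF*, *PolG2*, *mTerf5* and *mTerf3*. *PolG1*, *mtDNA-helicase*, *TFAM* and *mtTFB2* had none. Among all protein-coding genes 36.5% had an optimal peak by the same rule. No test of the difference was made, because 10 genes chosen by function are not replicates.

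The single replicates gave nearly the same split. The optimal set was derived from these replicates, so this is not separate support. Each replicate's 5595 regions of highest signal, as many as there are optimal peaks, were taken as its strongest regions. They lay at 6 of the 10 promoters in replicate 1 (35.6% of all genes), at 6 in replicate 2 (36.6%) and at 5 in replicate 3 (34.7%), where *mTerf3* was missing. *PolG1*, *mtDNA-helicase*, *TFAM* and *mtTFB2* were outside the strongest regions of all 3 replicates.

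The authors' longer lists, of peaks and background together, held a region near every one of these genes once the replicates were pooled. That count says little about the genes, since 59% of all protein-coding genes had a pooled region. In the full lists of single replicates the counts were 8 of 10 in replicate 1 (55.2% of all genes), 10 in replicate 2 (58.4%) and 8 in replicate 3 (58.7%). Replicate 1 lacked *PolG1* and *mtDNA-helicase*, and replicate 3 lacked *PolG1* and *mtTFB2*.

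**Figure D1:**
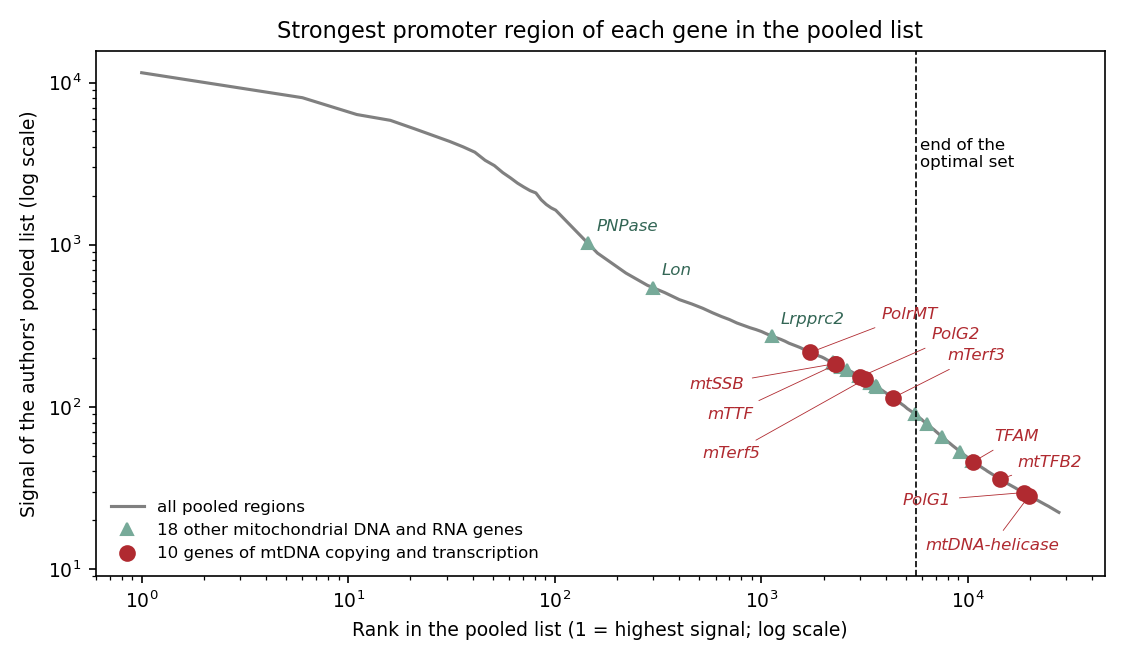
Signal of the authors' pooled list (log axis, scale not stated) against the rank of each region (log axis), with all pooled regions as a line, the strongest promoter region of each of the 10 genes as circles and that of 18 other genes for mitochondrial DNA or RNA as triangles. The dashed line is the end of the optimal set at rank 5595: 6 circles lie to its left, between ranks 1728 and 4339, and 4 to its right, from 10642 (*TFAM*) to 19806 (*mtDNA-helicase*).

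The signals named next are the authors' own value per region in the pooled list, whose scale is not stated, and they rank regions within that list only. Over the 4118 optimal peaks at promoters the median signal was 173, with quartiles of 123 and 262. The 6 peaks at these genes had a median of 168, so they were of ordinary height. The lowest peak of the optimal set had a signal of 89.1.

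Of the genes that copy mitochondrial DNA, *mtSSB* and *PolG2* had optimal peaks. The peak at *mtSSB*, for the single-strand binding protein, had a signal of 185 (rank 2276) and lay above 54.9% of optimal promoter peaks. That at *PolG2*, for the accessory subunit of the polymerase, had 153 (rank 3013) and lay above 41.5%. The region at *PolG1*, for the catalytic subunit, had a signal of 29.6 (rank 18596) and that at *mtDNA-helicase*, for the fly relative of mammalian Twinkle, 28.3 (rank 19806), both far down among the background regions.

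In the replicates' own lists, *PolG2* had signals of 50.8, 52.6 and 66.2 in replicates 1, 2 and 3. *mtSSB* had 36.8, 75.1 and 93.7, with replicate 1 far below the others. *PolG1* had 19.0 in replicate 2 and no region in the others. *mtDNA-helicase* had no region in replicate 1, 13.1 in replicate 2 and 16.2 in replicate 3. *PolG2* was thus listed at a similar height in every replicate, while *PolG1* and *mtDNA-helicase* were below even the lowest of the strongest regions, which was 29.2, 30.3 and 34.7 in replicates 1, 2 and 3.

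Of the genes for packaging and starting transcription, *PolrMT*, for the RNA polymerase, had the highest signal of the 10 in the pooled list. It was 217 (rank 1728), above 64.9% of optimal promoter peaks, with 70.8, 59.0 and 85.3 in replicates 1, 2 and 3. In the replicates it ranked first in replicate 1 only: *mtSSB* was higher in replicates 2 and 3, and *mTTF* was higher in replicate 2. Its partners had weak regions. *TFAM* had a pooled signal of 45.8 (rank 10642) and 21.7, 16.7 and 21.2 in the replicates. *mtTFB2*, for the factor that works with the polymerase at promoters, had a pooled signal of 35.8 (rank 14353), with 13.6 and 16.2 in replicates 1 and 2 and no region in replicate 3. The polymerase gene therefore had a peak in the optimal set and the genes of both of its promoter factors did not.

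The 3 genes of the MTERF family examined here, chosen by function like the rest, each had an optimal peak, beside the 36.5% of all protein-coding genes. *mTTF* encodes a protein that binds fly mitochondrial DNA and halts transcription there. Its pooled signal was 183 (rank 2306), above 54.3% of optimal promoter peaks, with 50.3, 71.0 and 61.0 in replicates 1, 2 and 3. *mTerf5*, whose product works with mTTF in flies, had 148 (rank 3172), above 38.3%, with 43.3, 46.2 and 62.3. *mTerf3*, whose mouse counterpart is known to restrain mitochondrial transcription, had the weakest peak of the 6, at 114 (rank 4339), above 18.8%, with 44.0, 33.7 and 32.2. In replicate 3 the last value was below that replicate's strongest regions.

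To average replicates, each signal was divided by the median of the same replicate's strongest regions, which was 52.4, 53.2 and 60.6. On this relative scale *PolrMT* stood at 1.29 ± 0.158 (SD, n = 3), *mtSSB* at 1.22 ± 0.454, *mTTF* at 1.10 ± 0.204, *PolG2* at 1.02 ± 0.0673, *mTerf5* at 0.908 ± 0.107, *mTerf3* at 0.669 ± 0.157 and *TFAM* at 0.359 ± 0.0503. The other 3 genes lacked a region in at least 1 replicate and have no mean. Neighbours in this order overlapped in their replicate values, with the exception of *mTerf3* and *TFAM*, whose nearest values were 0.533 and 0.413. All 6 genes with an optimal peak were above *TFAM* in every replicate. The optimal set was made from these same replicates, so this follows largely from the grouping and is not separate support. The values of *PolrMT* (1.11 to 1.41) also stayed clear of those of *PolG2* (0.969 to 1.09), *mTerf5* (0.826 to 1.03) and *mTerf3* (0.533 to 0.840). Scaled instead to the median of all promoter regions (27.8, 25.1 and 26.2), those of *PolrMT* overlapped those of *PolG2* and *mTerf5*, but not those of *mTerf3*. Compared within each replicate, *PolrMT* was above these 3 genes every time. Within replicates, *PolrMT* was 3.61 ± 0.386 times *TFAM* (SD of the ratio, n = 3). That ratio mixes sites at *TFAM*. Its strongest region had its summit 334 bp downstream of the start in replicate 1, but 33 and 48 bp upstream in replicates 2 and 3. With the region nearest to the start, *TFAM* stood at 0.285 in place of 0.359, and the ratio was not computed for that choice.

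**Figure D2:**
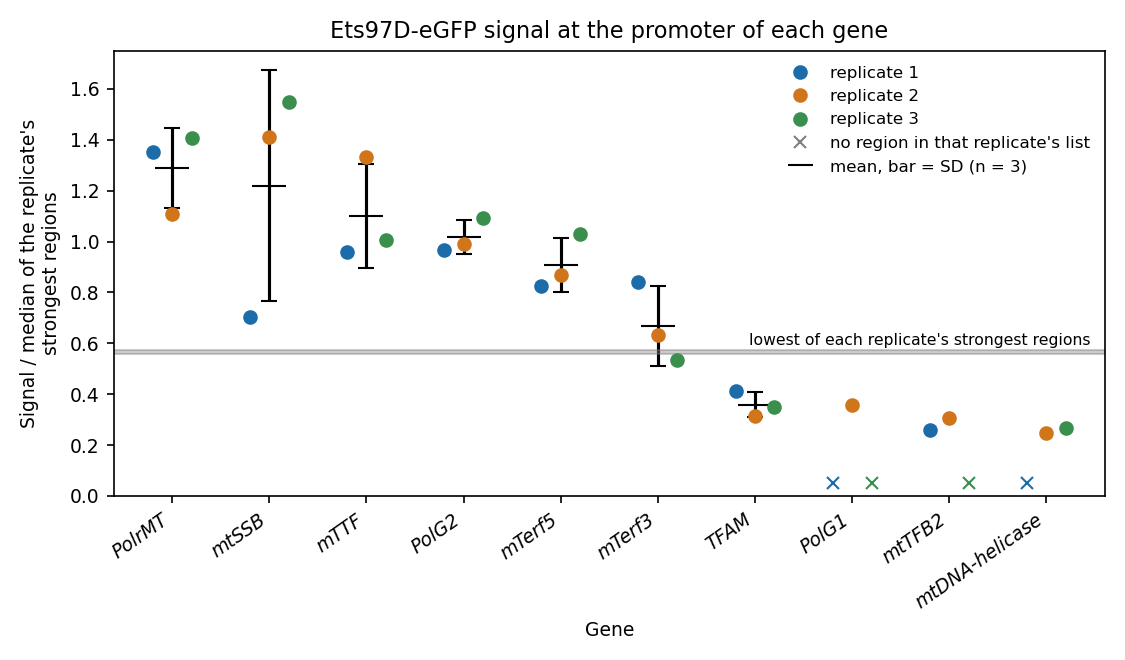
Signal of the strongest region within 500 bp of the start site of each gene, divided by the median of the replicate's strongest regions; points are replicates, crosses mark a replicate whose list had no region there, and horizontal lines with bars are the mean ± SD of genes with 3 values. The grey band spans the lowest of the strongest regions of each replicate (0.557 to 0.574): 5 genes lie above it in all replicates, *mTerf3* straddles it, and *TFAM*, *PolG1*, *mtTFB2* and *mtDNA-helicase* lie below it.

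Spread between replicates differed among the genes. The coefficient of variation of *PolG2* was 6.61% and that of *mtSSB* 37.2%. Over 3963 optimal promoter peaks with a region in all 3 replicates the median was 17.4%, with quartiles of 10.5% and 26.9%. The other 4 genes with an optimal peak, *mTerf5* (11.8%), *PolrMT* (12.3%), *mTTF* (18.5%) and *mTerf3* (23.4%), were within these quartiles. The wide spread of *mtSSB* came from replicate 1, at 0.701 against 1.41 in replicate 2 and 1.55 in replicate 3. Without that replicate its mean was 1.48.

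Summits of 5 of the 6 optimal peaks lay within 100 bp upstream of the start site. In the pooled list they were 22 bp upstream of *mTerf3*, 33 bp upstream of *mTerf5*, 36 bp upstream of *mTTF*, 48 bp upstream of *PolrMT* and 89 bp upstream of *PolG2*. Replicate summits ranged over 23 bp at *mTTF*, from 13 to 36 bp upstream, and over 40 bp at *mTerf5*, from 10 to 50 bp upstream. They ranged over 64 bp at *mTerf3*, 70 bp at *PolrMT* and 105 bp at *PolG2*. These summits all fell in the short stretches of sequence given above, between the gene and its upstream neighbour, apart from that of *PolrMT* in replicate 2, which was 20 bp inside the gene, and those of *mTerf5* in replicates 1 and 3, which were 50 and 42 bp upstream and so inside its neighbour *Non3*. The pooled summits of all 6 optimal peaks, *mtSSB* included, were intergenic. On dm6 the 5 regions were chr3L:20520569-20521018 at *mTerf3*, chr3R:18223490-18223939 at *mTerf5*, chr2L:14348601-14349050 at *mTTF*, chr2L:1108196-1108645 at *PolrMT* and chr2L:13832969-13833418 at *PolG2*.

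The peak at *mtSSB* was placed differently. Its pooled summit was 285 bp upstream of the start, and the summits of the strongest region in replicates 1, 2 and 3 were 327, 397 and 264 bp upstream, so none was within 250 bp. The listed region was only 117 bp long and had its summit on its last base, whereas 94.3% of pooled regions had the same length of 450 bp. Among optimal peaks, of which this is one, 72.0% had that length. It did not reach the start site. No other gene had a start site within 500 bp of this summit.

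Among genes without an optimal peak, summit positions spread most widely at *TFAM*, over 382 bp. There the pooled summit was 7 bp upstream and those of replicates 2 and 3 were 33 and 48 bp upstream, but the strongest region of replicate 1 was 334 bp downstream, inside the gene. At *mtTFB2* the summits of replicates 1 and 2 were 52 and 146 bp upstream, 94 bp apart. At *mtDNA-helicase* that of replicate 2 was 60 bp upstream and that of replicate 3 was 11 bp downstream, 71 bp apart. The distances at *mtTFB2* and *mtDNA-helicase* rest on 2 replicates each, so they cannot be set against ranges over 3. At *PolG1* the only replicate summit was 198 bp downstream, in coding sequence. Of all pooled summits near these genes, the farthest inside the limit of 500 bp was a side region of *mtSSB* 487 bp upstream, and the nearest outside it was a region 582 bp downstream of *mtDNA-helicase*, with a signal of 29.4.

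**Figure D3:**
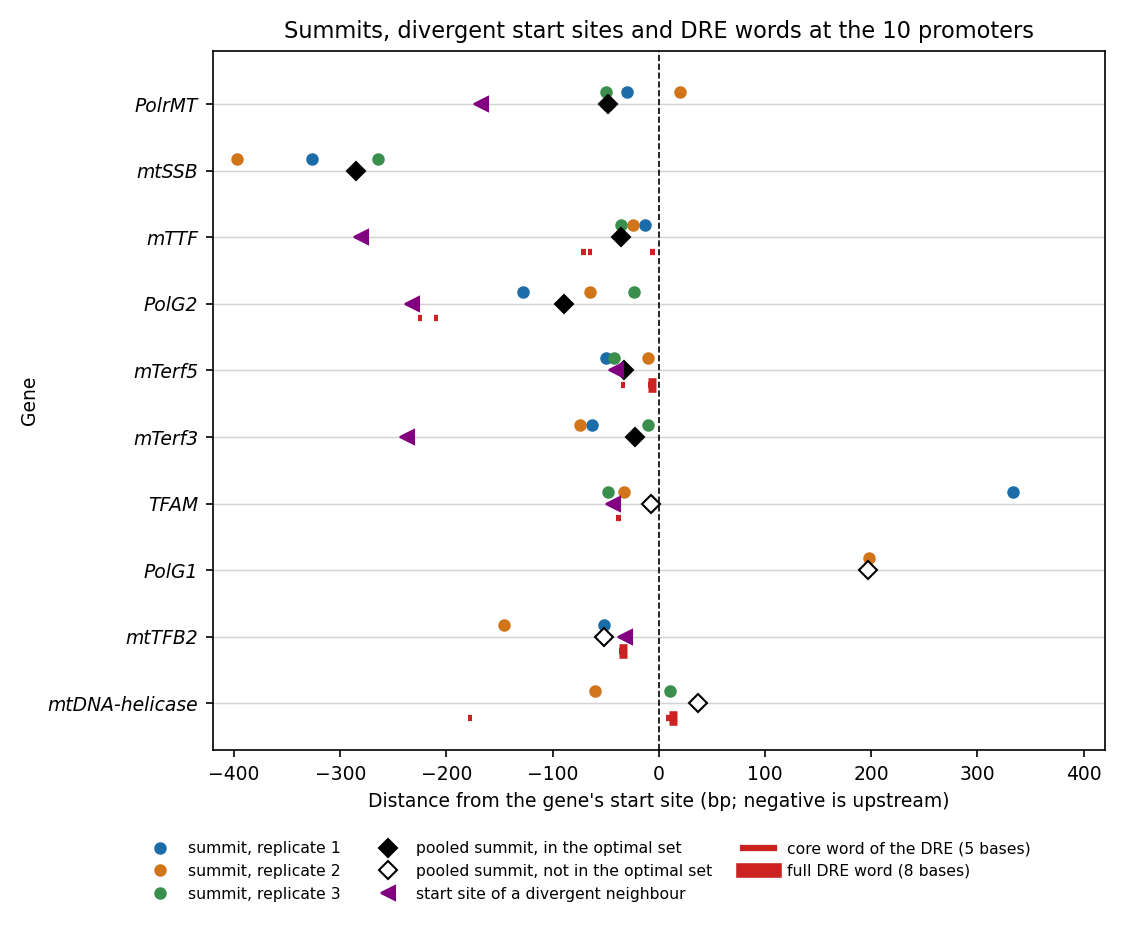
Position of the strongest region's summit relative to the start site of each gene (bp, negative upstream) in the 3 replicates (circles) and in the pooled list (diamonds, filled where the region is in the optimal set), with start sites of divergent neighbours (triangles; that of *mTTF* is non-coding) and DRE words between 250 bp upstream and 50 bp downstream (red bars). Summits of *mTTF* lie within 23 bp of each other, those of *mtSSB*, whose words are not drawn, all lie over 250 bp upstream, and thick bars mark the full word at *mTerf5*, *mtTFB2* and *mtDNA-helicase*.

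Most of these promoters were shared with another gene, so a peak there cannot be given to 1 gene alone. *PolG2* starts at the same base as *GatC*, for a subunit of the amidotransferase that makes glutaminyl-tRNA in mitochondria. The start of *Polr2C*, for a subunit of RNA polymerase II, lies 232 bp upstream in the opposite direction, and the peak was 89 bp from the shared start and 143 bp from that of *Polr2C*. Divergent starts lay 40 bp from *mTerf5* (*Non3*, for a nucleolar protein of ribosome assembly), 167 bp from *PolrMT* (*CG14339*) and 237 bp from *mTerf3* (*CG5104*). The summit at *mTerf5* was 33 bp from the start of *mTerf5* and 7 bp from that of *Non3*. At *PolrMT* and *mTerf3* the summit was nearer to the mitochondrial gene, 48 against 119 bp and 22 against 215 bp. The divergent start at *mTTF* belongs to a non-coding antisense RNA, *asRNA:CR44850*, 280 bp away.

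Genes without an optimal peak included shared and unshared promoters. *TFAM* starts 43 bp from *CG5412* and *mtTFB2* 32 bp from *CG11722*, both divergent. *PolG1* and *mtDNA-helicase* shared their promoters with no other gene, and neither did *mtSSB*, which had an optimal peak. In all, 6 of the 10 genes had a divergent protein-coding start within 500 bp, against 27.3% of all protein-coding genes. Optimal peaks were at 71.5% of the 3815 genes with such a neighbour and at 23.3% of the 10153 others. Of the 6 divergent genes here 4 had an optimal peak, and of the other 4 genes 2 did. The part of divergent neighbours in the count of 6 peaks was not tested.

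A search for the 8 words covered both strands of the 50 bp on each side of the summit, using the optimal summit or, where there was none, the pooled one. Neither ETS word was there at any of the 10 genes. Shorter or variant forms of the ETS site were not searched for, so their absence is not shown. CCGGAA was in 3.62% of windows at optimal promoter peaks and CCGGAAG in 0.801%, so both are rare at promoter summits of this list. No CCGGAA lay between 250 bp upstream and 50 bp downstream of the 10 start sites either, a window that held it at 6.84% of 19270 promoters. The nearest was inside *mtDNA-helicase*, 81.5 bp from the pooled summit.

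The DRE word was within 50 bp of the summit at 3 of the 10 genes, *mTerf5*, *mtTFB2* and *mtDNA-helicase*. It was in 9.91% of windows at optimal promoter peaks, in 2.64% of windows at the 5575 promoter regions of the pooled list outside the optimal set, and in 7.98% of all promoters. Of the 3 genes only *mTerf5* had an optimal peak, so the word was found with and without one. The sites are shown in the direction of each gene, with the word in capitals.
mTerf5, chr3R:18223674-18223703, minus strand: tttgccggccgTATCGATAgttgattacct
mtTFB2, chr3R:10045526-10045555, plus strand: gttcgttatgcTATCGATAagttattgggt
mtDNA-helicase, chr2L:9893418-9893447, minus strand: ctcactttcgaTATCGATAacatggaaaat
At *mTerf5* the word ends 3 bp before the start site. At *mtTFB2* it spans 37 to 30 bp upstream, across the start site of the divergent *CG11722* at 32 bp upstream, with its middle in the 5′ untranslated part of that gene. At *mtDNA-helicase* it lies 10 to 17 bp downstream, in the untranslated leader of the gene.

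The core word CGATA, counted also where it is part of the DRE word, was within 50 bp of the summit at 5 genes, *mTTF* and *TFAM* besides those 3. It was in 37.7% of windows at optimal promoter peaks and in 18.3% of those at the weaker promoter regions, the class of *TFAM*, *mtTFB2* and *mtDNA-helicase*. From 250 bp upstream to 50 bp downstream of the start it was present at 7 of the 10 genes, against 45.7% of all promoters. *mTTF* had 3 copies, at 29 to 35 bp from its summit.

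The E-box word CAGCTG was within 50 bp of the summit at 4 genes, *PolrMT*, *mTTF*, *mtSSB* and *mtTFB2*, against 9.08% of optimal promoter peaks and 7.14% of the weaker promoter regions. Its nearest copy was centred 1.5 bp from the summit at *mtTFB2*, which had no optimal peak. The distance was 10.5 bp at *mtSSB*, 22.5 bp at *mTTF* and 29.5 bp at *PolrMT*. CACGTG was within 50 bp of no summit (1.38% of optimal promoter peaks). GGTCACAC was also absent there (7.72%), and lay once in the promoter window, at *mTerf3*. TATAAA was near the summits of *mtDNA-helicase* and *mtTFB2* only, neither with an optimal peak, against 12.9% at optimal promoter peaks and 13.6% at the weaker promoter regions. These matches are counts of letters and say nothing about which protein is bound.

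The genes of the polymerase subunits lie close together on chromosome arm 2L and differed in what was found at their starts. *PolG1* starts 5333 bp from *PolG2* and both are transcribed the same way. Between them lie *Arpc1*, for a subunit of the actin-nucleating Arp2/3 complex, and *Orc5*, for a subunit of the origin recognition complex. Their names, with *mRpS23* and *CenG1A* on the other side, were added after the values were seen. The divergent promoter of *Arpc1* and *Orc5* had an optimal peak with a signal of 192 (rank 2127), and that of *mRpS23*, for a mitochondrial ribosomal protein, and *CenG1A* had one of 833 (rank 166). The peak of *PolG2*, at 153, was the lowest of these 3, and the region at *PolG1*, at 29.6, was no higher than one of 31.5 outside any promoter, 976 bp away.

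**Figure D4:**
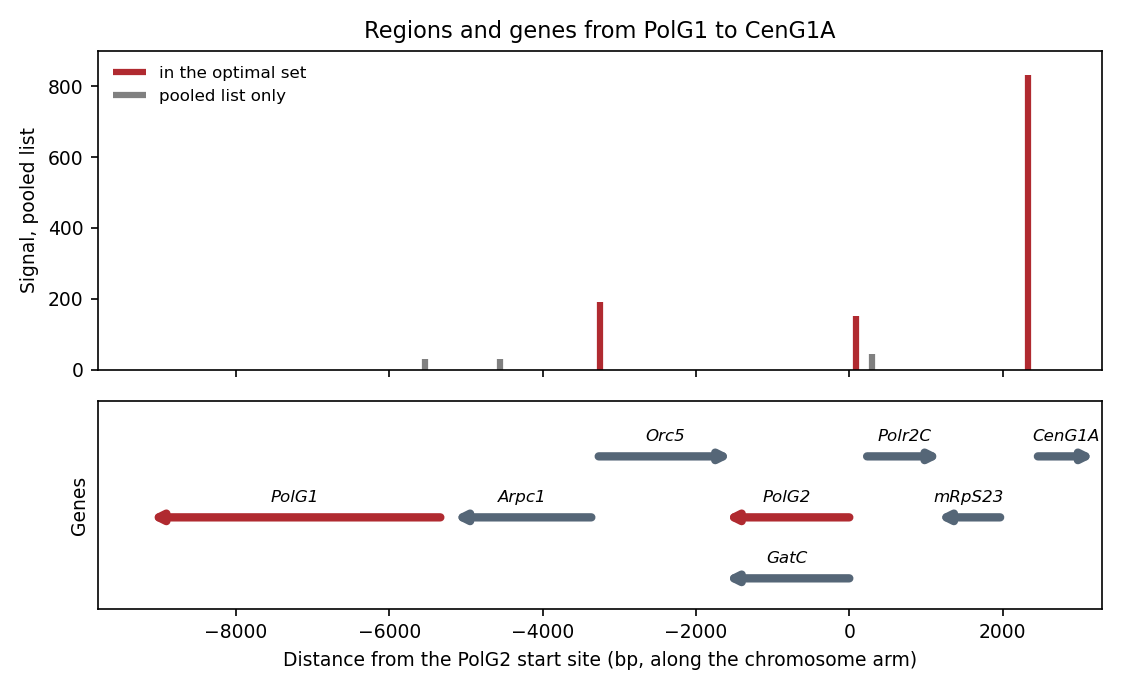
Signal of pooled regions (upper panel) and gene models with arrows in the direction of transcription (lower panel) by distance from the start of *PolG2* in bp. Regions of the optimal set (red lines) stand at the promoters of *Arpc1* and *Orc5*, of *PolG2*, *GatC* and *Polr2C*, and of *mRpS23* and *CenG1A*, with signals of 192, 153 and 833, and the region at the start of *PolG1* (grey line, 29.6) is in the pooled list only.

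Among 18 other nuclear genes for mitochondrial DNA or RNA, 14 had an optimal promoter peak, beside the 36.5% of all protein-coding genes. This list was chosen with earlier results of these data known, and no test was made. Of the 18 genes, 9 had a divergent protein-coding start within 500 bp, against 27.3% of all protein-coding genes. The part of such neighbours in the count was not tested. The median pooled signal of the 14 peaks was 163, close to the 168 of the 6 genes above. The 14 peaks reached higher, however. *PNPase*, for an RNA-degrading phosphorylase, had a signal of 1017 (rank 145) and 6.12 ± 0.868 on the relative scale (SD, n = 3). *Lon*, for the matrix protease known to degrade TFAM, had 541 (rank 300; 3.29 ± 0.463), and *Lrpprc2*, for an RNA-binding protein, had 273 (rank 1127; 1.67 ± 0.102). On this scale every replicate of these 3 genes was above every replicate of *PolrMT*. Scaled to the median of all promoter regions, *Lrpprc2* overlapped *PolrMT*, though it was higher within each replicate.

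The remaining 11 peaks of these other genes had signals from 188 down to 90.4, against 217 to 114 at the copying and transcription genes. The R-loop nuclease gene *rnh1* had 188, the ATAD3 family gene *bor* 186, the rRNA methyltransferase gene *mtTFB1* 177 and the RNA-stability gene *bsf* 170. The mitochondrial tRNA processing genes *mldr* (156), *RNaseZ* (141) and *rswl* (139) were followed by the nuclease gene *EndoG* (134), the topoisomerase gene *Top3alpha* (133), the RNA-binding protein gene *SLIRP1* (133) and the poly(A) polymerase gene *MTPAP* (90.4), which was just inside the optimal set. The tRNA processing gene *scu*, the RNA helicase gene *Suv3*, the DNA ligase gene *DNAlig3* and the protease subunit gene *ClpX* had none. *mtTFB1* is the relative of *mtTFB2*, and the relative signal of its peak was 1.29 ± 0.164 (SD, n = 3). That peak is shared, since *mtTFB1* starts at the same base as *Ccdc56*, a neighbour named after the values were seen. Of the 14 peaks 10 had the start of another gene within 500 bp, as had 5 of the 6 at the copying and transcription genes, so these signals cannot be given to single genes either. No DRE word was within 50 bp of the summit at any of the 18 genes, and the core word was at 5.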

How the data were processed

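The deposited files are region lists of the narrowPeak type on the dm6 build. Per the file headers, the authors derived a list of peaks and background from each replicate and a control, a further one from the replicates together, and from these the optimal set, thresholded by IDR. The signal of each region (column 7) is the authors' own value, as deposited, on a scale that is not stated. For the aligner, the caller, their versions and the IDR threshold, nothing is given in the sources used here. Read counts are not in the lists, so depth is unknown and no counting interval can be given; control libraries, signal tracks and the dm3 lists were not used here. Replicate numbers are those of the labels.

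Summits were the deposited start plus the offset, 1-based. Start sites were those of protein-coding transcripts in the Ensembl annotation of Release 6; all region and gene ends lay within the 7 sequences. The optimal set is the top 5595 of the pooled list by signal. Where a gene had several regions within 500 bp, the strongest stood for it. Relative signals and coefficients of variation were computed from the 3 replicates. With 1 group there is no contrast, and no test was made. Shared promoters were those with another gene's start within 500 bp of the member's summit. The genes named are the 10 members, all genes sharing their promoters, and the 18 other genes, with signals where they had an optimal peak; the members and lists were chosen with earlier results of these data known. The sequence upstream of *mtSSB* is not reported here. Alternatives changed the distance, annotation, list threshold, scale, region choice, word window and replicates. Procedures were tested on simulated data. Python 3.11.15, NumPy 2.4.6, pandas 2.3.3 and matplotlib 3.10.9 were used.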

Additional observations from a re-analysis of the deposited data

How the results depend on the processing

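The count of 6 of 10 genes with an optimal peak was 5 or 6 under every other distance, annotation and overlap rule tried: *mtSSB* was lost within 250 bp or where the region had to overlap the start, and *mTerf5* where a summit counted for its nearest start only. It fell to 3, without *PolG2*, *mTerf5* and *mTerf3*, when only the stronger 50% of optimal peaks were kept. Requiring a summit among the strongest regions of the remaining replicates gave 5 to 6 as replicates were left out, and *mTerf3* was the gene lost. The share of all protein-coding genes under these other settings is not given here, so no change can be called particular to these genes. In full lists the count was 10 in place of 6 in replicate 2, where the share of all genes was 58.4% in place of 36.6%. It was 8 in place of 5 in replicate 3, where that share was 58.7% in place of 34.7%. The median relative signal of the 7 genes with 3 values, 1.02, was 0.979 to 1.04 with a replicate left out and 2.15 when scaled to the median of all promoter regions, which takes in background regions. At *TFAM*, taking the region nearest to the start gave 0.285 in place of 0.359. Within 100 bp of the summit, CCGGAA was at 1 gene in place of 0, TATAAA at 5 in place of 2 and CACGTG at 3 in place of 0. A wider window holds any word more often, and the share of all summits with each word in it is not given here. In the promoter window GGTCACAC was at 1, TATAAA at 8 and CACGTG at 3 genes, against 6.72%, 42.3% and 4.04% of all 19270 promoters. Other counts of words stayed within 1.5 times. No paired analysis was possible because there is 1 group. Unknown depth, an unstated signal scale and 3 replicates limit the precision, and a gene without an optimal peak is not shown to be unbound.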

Other observations

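Of the 6 optimal peaks at these genes 5 had a weaker pooled region beside them, centred 200 to 206 bp further upstream: *PolrMT*, *PolG2*, *mtSSB*, *mTerf3* and *mTerf5*. Among the 4118 optimal promoter peaks 40.1% had another pooled summit within 250 bp, at a median of 203 bp with quartiles of 201 and 208 bp, so the spacing is common to the list. The side region of *mTerf3* had a signal of 57.2, 0.504 times that of the peak, and the one at *mTerf5* 27.7, or 0.187 times. *mTTF* had no second region that near.

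The nearest optimal peak upstream of *mtDNA-helicase* had a signal of 564 (rank 276) and stood 1633 bp from its start. It lies at the divergent promoter of *Bka* and the non-coding gene *Uhg2*, which hosts small nucleolar RNAs and ends 358 bases before *mtDNA-helicase*. These neighbours were named after the values were seen.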
